A study of Mus musculus with 72 samples.

Results

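Brain DNA of 3 targeted mouse lines was compared between knockout and wild type at the promoter CpG island of the targeted gene, and the LacZ reporter inserted into that gene was measured in the same knockout DNA. The libraries were those whose title carries the brain code, 9 of the 72 in the series, with 1 knockout island library, 1 knockout LacZ library and 1 wild-type island library for each of the lines Arap, Dstn and Ninj1. The knockouts were Arap -/-, Dstn -/- and Ninj1 -/- and carried tm1a alleles from the Knockout Mouse Project, where the gene's own promoter drives LacZ and the insert also brings a neo cassette for selection. Knockout and wild-type mice were on a C57BL/6N background and 7 weeks of age. Wild-type brain has no reporter, so LacZ has no wild-type value. With 1 library per line and genotype, the line is the only replicate, and the labels do not say whether animals were pooled or whether tissues of a line came from the same animals. Amplicons hold no expression markers, so the brain label could not be checked against the data.

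A CpG island is a stretch rich in cytosine-guanine pairs that usually covers a promoter, and in most tissues, brain included, such islands stay largely free of DNA methylation. Methylation of a promoter island goes with a silent gene, and DNA brought in from outside, such as a bacterial reporter, is often methylated in mouse tissue. The accession in the Arap labels is that of Arap1, which encodes a GTPase-activating protein. Dstn encodes destrin, an actin-depolymerizing protein, and Ninj1 encodes ninjurin 1, a membrane adhesion protein that also ruptures the membrane of dying cells.

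The promoter sequences place the measured sites against the gene starts and show how densely they lie. They are RefSeq promoter sequences of the GRCm38.p6 build, on the plus strand. Capitals mark the CpG sites measured in both brain island libraries.
Arap1, chr7:101347819-101348118: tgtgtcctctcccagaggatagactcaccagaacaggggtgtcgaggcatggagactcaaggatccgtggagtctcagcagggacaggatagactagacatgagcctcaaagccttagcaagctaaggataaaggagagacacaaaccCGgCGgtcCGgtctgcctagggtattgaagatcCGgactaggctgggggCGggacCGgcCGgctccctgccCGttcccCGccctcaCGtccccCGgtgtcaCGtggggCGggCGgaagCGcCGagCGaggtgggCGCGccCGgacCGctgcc
Dstn, chr2:143915081-143915380: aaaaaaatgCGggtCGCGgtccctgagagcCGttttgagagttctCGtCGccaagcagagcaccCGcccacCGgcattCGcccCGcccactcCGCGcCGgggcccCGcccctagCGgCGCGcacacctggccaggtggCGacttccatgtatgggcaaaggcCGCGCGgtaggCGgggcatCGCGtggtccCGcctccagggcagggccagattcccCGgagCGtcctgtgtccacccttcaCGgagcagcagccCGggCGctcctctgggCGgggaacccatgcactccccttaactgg
Ninj1, chr13:49187512-49187578: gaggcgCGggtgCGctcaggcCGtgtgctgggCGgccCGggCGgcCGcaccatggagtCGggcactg

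The files give positions in the mm9 build and the sequences are in another, so sites were matched by the spacing of their CpGs and not by coordinate. In the covered span, 21 of 21 sites of Arap1, 31 of 32 of Dstn and 8 of 8 of Ninj1 fell on a CpG of the sequence. The Ninj1 amplicons began just before the gene start, so only the end of its promoter window is shown, and 54 of its 62 sites lie past the window. Distances below are in bases from the transcription start of the RefSeq transcript, negative before it. The windows of 300 bases hold 23 CpGs in Arap1, 31 in Dstn and 37 in Ninj1. Of 32851 mouse promoters in the table, 78.5%, 89.4% and 94.4% hold fewer. The GC box GGGCGG, searched on both strands, occurs 4 times in Arap1, 4 times in Dstn and 7 times in Ninj1, and 35.7% of all promoters hold it at least once. In Arap1, the 4 low sites inside a box had a median of 1.499% in knockout and 0.926% in wild-type brain, and the 17 outside had 0.996% in knockout and 0.422% in wild-type brain. In Dstn, the 3 low sites inside a box had a median of 0.434% in knockout and 0.365% in wild-type brain, and the 23 outside had 0.373% in knockout and 0.368% in wild-type brain. In Ninj1, the 2 low sites inside a box had 1.80% in knockout and 1.23% in wild-type brain, and the 3 outside had 0.755% and 0.509%. So few sites give no firm medians: in Arap1, wild-type levels inside a box ran from 0.297% to 2.33%.

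Sites with at least 10 reads in both genotypes were used. The level of a library is the mean percent methylation over those sites, each site counting once. The 3 knockout island libraries held 1016540 to 1903352 methylation calls, at a median of 14437.5 to 43673 reads per site, and the 3 wild-type island libraries held 3127283 to 6158257 calls, at 45200.0 to 178870 reads per site. The knockout LacZ libraries held 959090 to 2632849 calls. Intervals given for single sites are 95% Wilson intervals. They cover counting error only, since the reads are amplified copies and not independent molecules.

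Knockout brain had a slightly higher mean island level than wild-type brain in each of the 3 lines, by under 1 percentage point. The Arap1 island averaged 1.27% in knockout and 0.582% in wild-type brain over 31 sites, a difference of 0.688 points. The Dstn island averaged 3.86% in knockout and 3.65% in wild-type brain over 79 sites, a difference of 0.209 points. The Ninj1 island averaged 11.2% in knockout and 10.3% in wild-type brain over 62 sites, a difference of 0.934 points. Over the lines the difference was 0.610 ± 0.368 points (SD, n = 3; p = 0.25 by an exact sign-flip permutation, two-sided), and 0.25 is the lowest p that 3 lines allow. By these means, the islands themselves differed far more from line to line than the genotypes did. By the median over sites this did not hold. The medians for Arap1, Dstn and Ninj1 were 0.425%, 0.365% and 0.482% in wild-type brain. In knockout brain they were 1.10%, 0.436% and 0.885%. With reads pooled over sites, the Ninj1 difference turned to -0.497 points, and with reads pooled the other lines kept knockout higher.

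Most sites in all 3 islands were nearly free of methylation in both genotypes, and the genotypes were then set apart site by site at these low sites, defined as those averaging under 5% over both. All 31 Arap1 sites were low, and all 31 were higher in knockout brain, with levels of 0.598% to 3.48% in knockout and 0.279% to 2.33% in wild-type brain. Their median was 1.10% in knockout and 0.425% in wild-type brain, and the median difference was 0.542 points. In Ninj1, 41 of 43 low sites were higher and 2 lower in knockout brain, with medians of 0.658% in knockout and 0.377% in wild-type brain. In Dstn, 39 of 71 low sites were higher, 31 lower and 1 equal, and the low sites averaged 0.405% in knockout and 0.404% in wild-type brain, a difference of 0.00104 points. The small general excess at low sites was thus seen in Arap1 and Ninj1 brain and not in Dstn brain, where the mean difference came from the sites above 5%. Neighbouring sites share reads, so the number of sites is not a number of replicates.

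Coverage moved with genotype. Median coverage at the sites used was 43673 reads in knockout and 180042 in wild-type brain for Arap1, 20131 in knockout and 45281 in wild-type brain for Dstn, and 14437.5 in knockout and 47404.5 in wild-type brain for Ninj1. Knockout libraries were the shallower ones in all 3 lines. The part of coverage in the low-site differences was not tested. Cytosines outside CpG were not listed, so incomplete bisulfite conversion, which raises every site a little, was not measured, and its part in the low-site differences was not tested.

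**Figure D1:**
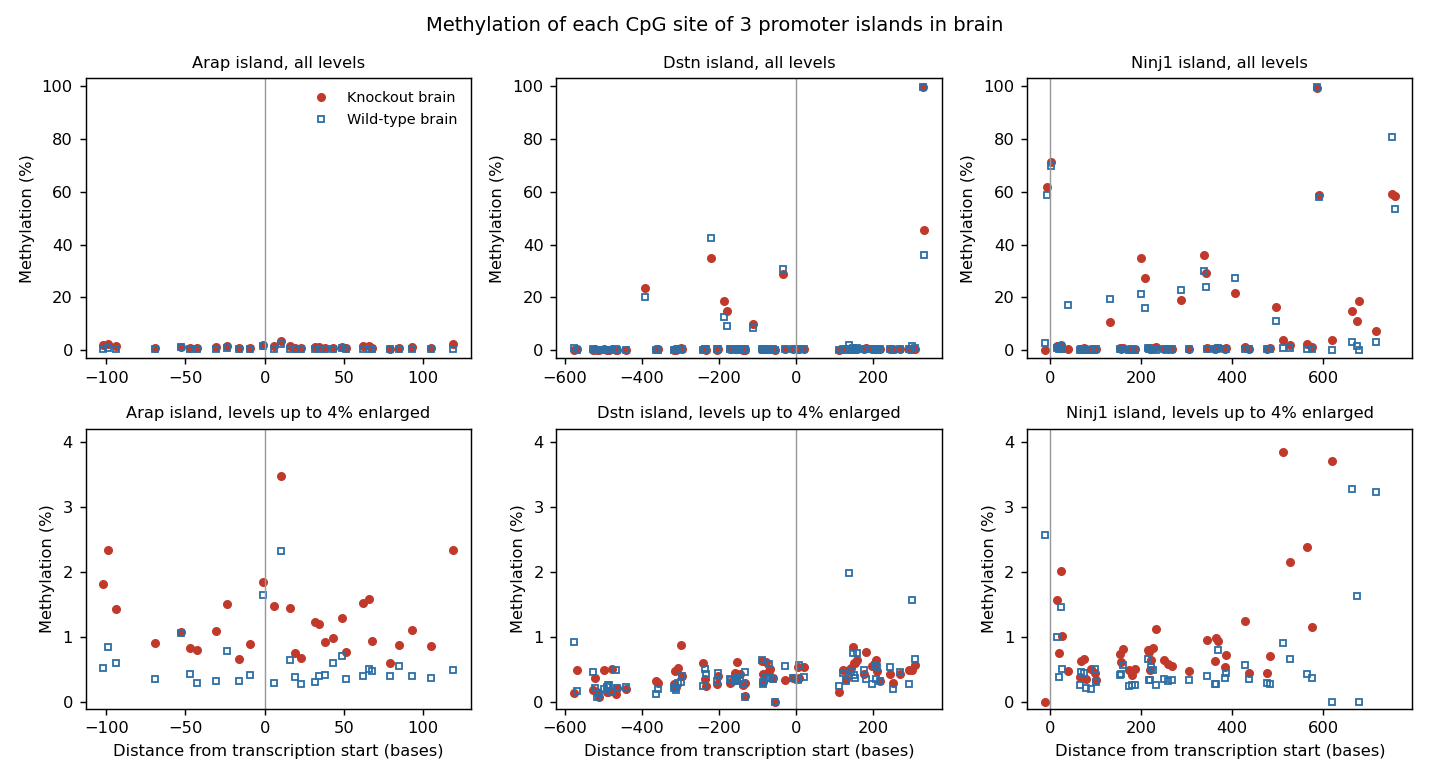
Methylation (percent of reads) of every CpG site used, against its distance in bases from the transcription start (vertical line), in knockout brain (filled circles) and wild-type brain (open squares), 1 library each. The lower row enlarges levels up to 4%: all 31 Arap1 sites lie higher in knockout, the 71 low Dstn sites intermix, and 41 of 43 low Ninj1 sites lie higher in knockout.

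A site was counted as called where the genotypes differed by at least 1 percentage point and their intervals did not overlap. In Arap1, 7 of 31 sites were called higher in knockout brain (22.6%) and 0 lower (0%), against 6.15% higher and 8.46% lower over the 130 site pairs of its other tissues. At any size of difference, the intervals of 30 Arap1 sites stood apart with knockout higher (96.8%), and of 0 sites with knockout lower. Its other tissues had 69.2% of sites apart with knockout higher and 16.2% with knockout lower, and liver differed from the rest. Knockout was higher with intervals apart at 30 of 33 sites in heart, 27 of 33 in kidney and 26 of 32 in lung. In liver it was higher at 7 of 32 and lower at 18. In Dstn, 5 of 79 sites were called higher (6.33%) and 4 lower (5.06%), against 8.18% higher and 3.07% lower in its other tissues. In Ninj1, 11 of 62 sites were called higher (17.7%) and 4 lower (6.45%), against 12.8% higher and 8.45% lower in its other tissues. At any size, the intervals of 40 Ninj1 sites stood apart with knockout higher (64.5%) and of 5 with knockout lower (8.06%), against 28.7% and 14.2% in its other tissues. In Dstn these numbers were 23 (29.1%) and 13 (16.5%), against 19.4% and 16.9% in its other tissues. Among the other Arap1 tissues, heart gave the same numbers as brain, 7 higher and 0 lower, and all 11 lower calls were in liver. Whether intervals stand apart also depends on depth, which was not matched between tissues. In Ninj1, wild-type brain was the deepest of its tissues, at a median of 47404.5 reads, and knockout brain the shallowest, at 14437.5. These calls compare single libraries and are no test of genotype.

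The Arap1 sites that differed most lie at both edges of the amplified span. The site at chr7:108496701 (mm9), at 119 from the start, had 2.34% in knockout brain (interval 2.20% to 2.49%) and 0.496% in wild-type brain (0.464% to 0.531%). The site at chr7:108496483, at -99, had 2.35% in knockout brain (2.16% to 2.55%) and 0.844% in wild-type brain (0.799% to 0.892%). Its neighbour 3 bases away had 1.81% in knockout and 0.523% in wild-type brain. At that neighbour knockout was also higher in 4 of 4 other tissues of the line, by 0.234 to 0.980 points, so brain showed the larger difference there. At chr7:108496701 and chr7:108496483 knockout was higher in 3 of 4 other tissues. In liver the differences were -4.30 points at the first and -0.0644 points at the second. The site highest in wild-type brain, chr7:108496592, lies at 10, within a GC box, and it was also the highest in knockout brain, at 3.48% (3.34% to 3.62%) against 2.33% in wild type (2.28% to 2.38%). At chr7:108496592 knockout was higher in 2 of 4 other tissues, with differences of -0.559 to 1.80 points. The sites at chr7:108496581 and chr7:108496529 had nearly equal levels, 1.85% and 1.08% in knockout brain and 1.64% and 1.06% in wild-type brain.

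Dstn had 8 sites averaging at least 5%, set singly or in adjacent pairs among low sites. The highest, chr2:143741395, was 99.8% methylated in knockout and 99.7% in wild-type brain and lies at 329. The site 4 bases on, chr2:143741399, had 45.6% in knockout brain (44.5% to 46.7%) and 36.2% in wild-type brain (34.9% to 37.5%), the largest positive difference of the line. Before the start, chr2:143740880 had 18.7% in knockout and 12.8% in wild-type brain, and chr2:143740887 had 15.0% in knockout and 9.27% in wild-type brain. At all 3 of these sites knockout was higher in 5 of 5 other tissues too, by 0.550 to 9.77 points. The largest negative difference was at chr2:143740846, at -220, with 34.99% in knockout brain (34.5% to 35.5%) and 42.6% in wild-type brain (42.2% to 43.0%). There knockout was lower in 5 of 5 other tissues as well, with differences of -8.09 to -1.40 points. The genotypes thus differed in brain at these 4 sites in the direction seen in every other tissue of the line.

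At other Dstn sites brain went against the remaining tissues. The site at chr2:143741033, at -33, had 28.7% in knockout and 30.7% in wild-type brain, a difference of -2.01 points, while the 5 other tissues had differences of 5.48 to 23.2 points. The site at chr2:143740954 went the opposite way, with 9.98% in knockout and 8.49% in wild-type brain, a difference of 1.49 points against -7.78 to -2.67 points in the other tissues. It was picked out after its values were seen. The 2 low sites called in Dstn, chr2:143741203 and chr2:143741367, were lower in knockout brain. The first had 0.494% in knockout (0.371% to 0.659%) and 1.98% in wild-type brain (1.67% to 2.36%), against differences of -0.165 to 0.0986 points in the other tissues. The second, also picked out after its values were seen, had 0.4999% in knockout (0.376% to 0.664%) and 1.58% in wild-type brain (1.30% to 1.91%), against differences of -0.264 to 0.163 points in the other tissues. In brain, 6 of the 8 elevated Dstn sites sit where knockout coverage changes by at least 1.2 times between neighbouring sites, and 22 of the 71 low sites do. Such a step can mark the edge of an amplicon, but need not. At chr2:143741033 the knockout step was 3445 times, next to a position at -53 that matched no CpG of the sequence. That position had 0% in both genotypes and is the 1 low site with equal levels. The part of amplicon edges in these levels was not tested.

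Ninj1 had 19 sites averaging at least 5%, the most of the 3 islands, and the differences there were the widest. The site at chr13:49282938, at 41 and the last capital pair in the Ninj1 sequence above, had 0.487% in knockout brain (0.395% to 0.599%) and 17.3% in wild-type brain (16.8% to 17.8%). The other tissues had nearly the same levels, 0.294% ± 0.0553 in knockout and 15.4% ± 0.911 in wild type (SD, n = 5 each), with differences of -16.5 to -14.3 points. Whether the CpG itself is present in the DNA of both genotypes cannot be read from these data and was not tested. The value of either genotype may therefore not be a methylation level. The site at chr13:49283030 had 10.7% in knockout and 19.4% in wild-type brain, with other tissues between -12.1 and 3.08 points. The site at chr13:49283097 had 35.1% in knockout (34.6% to 35.6%) and 21.3% in wild-type brain (21.0% to 21.6%), with knockout higher in 4 of 5 other tissues and lower in 1. The sites highest in wild type with deep coverage differed little, with 99.3% in knockout and 99.7% in wild-type brain at chr13:49283483, and 71.2% in knockout and 70.0% in wild-type brain at chr13:49282901.

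The far end of the Ninj1 amplicons was read thinly, at 24 to 61 reads per site, and it held the most extreme differences. At chr13:49283575, 10 of 54 reads were methylated in knockout brain (18.5%, 10.4% to 30.8%) and 0 of 61 in wild-type brain (0% to 5.92%). A limit of 3 reads would allow a level of up to 4.92% there. At chr13:49283560, knockout had 14.8% (7.70% to 26.6%) and wild type 3.28% (0.904% to 11.2%), and at chr13:49283647 knockout had 59.3% (40.7% to 75.5%) and wild type 80.6% (63.7% to 90.8%). The intervals overlap at both, so neither site was called. At chr13:49283575 and chr13:49283560 knockout was higher in 3 of 3 other tissues with both genotypes covered. The differences were 2.50 to 7.69 points at the first and 7.69 to 12.9 points at the second. At chr13:49283647 knockout was lower in 2 of 2, with differences of -18.2 and -15.5 points. Without sites under 100 reads in either library, the Ninj1 difference was 0.545 points and not 0.934. In Ninj1, 6 of the 19 elevated sites had under 100 reads, and 10 sit at a knockout coverage step of at least 1.2 times. Of the 43 low sites, 2 had under 100 reads and 16 sit at such a step.

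Across sites, the knockout and wild-type profiles in brain had a Pearson r of 0.739 in Arap1 (31 sites), 0.992 in Dstn (79 sites) and 0.967 in Ninj1 (62 sites). The Spearman rank correlation was lower, at 0.581 in Arap1, 0.567 in Dstn and 0.700 in Ninj1. The sites share libraries and amplicons, so these are descriptions only.

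Brain was then set against the other tissues of the same lines, which were heart, kidney, liver and lung for Arap, the same plus spleen for Dstn, and kidney, liver, lung, muscle and spleen for Ninj1. The knockout minus wild-type difference in brain was the highest of 5 tissues in Arap1 (0.688 points, others -0.836 to 0.677) and the highest of 6 in Ninj1 (0.934 points, others -0.0310 to 0.681). In Dstn it was the fourth of 6 (0.209 points, others 0.0775 to 0.601). Each tissue was ranked over its own sites. For Ninj1 the brain difference was 0.545 points at 100 reads and 0.488 at shared sites, and tissues were not ranked in those settings. Averaged over lines, brain exceeded the mean of the other tissues by 0.406 ± 0.386 points (SD, n = 3). Exact permutation of the brain label within lines, 180 arrangements, gave p = 0.167, adjusted to 0.578 over 4 such tests, so the difference in brain was not set apart from that in other tissues. The Arap1 liver pair, the only one of its line with knockout lower, bears on this comparison, which gave 0.303 points without it. Over all lines or tissues left out it ranged from 0.283 points without Ninj1 to 0.628 points without Dstn.

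**Figure D2:**
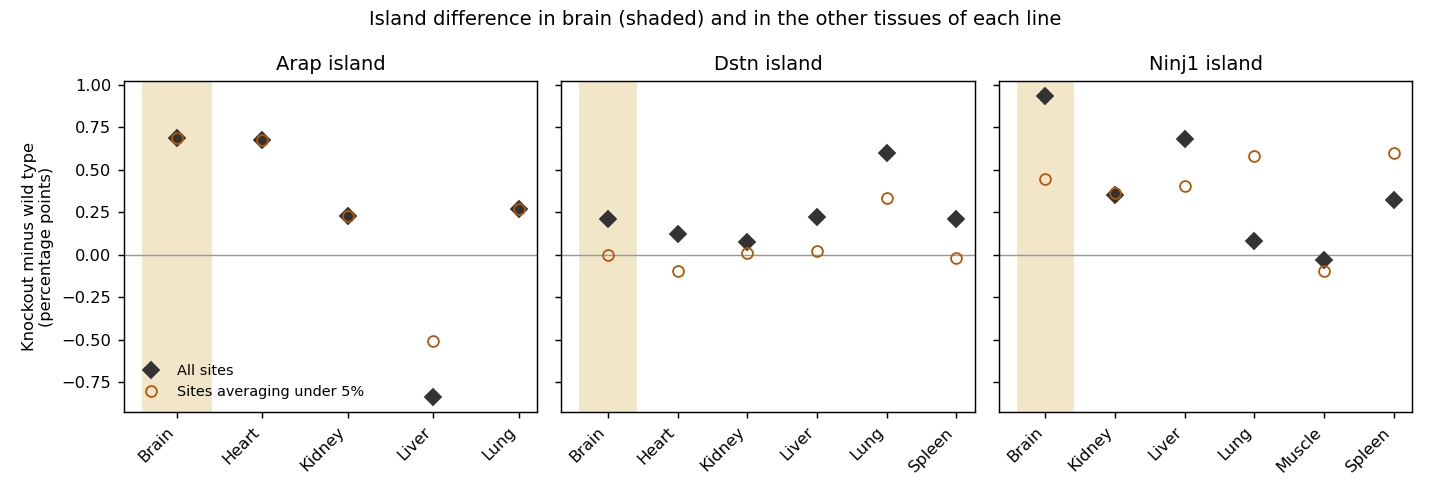
Knockout minus wild-type island methylation (percentage points) in brain (shaded) and in each other tissue of the 3 lines, over all sites (diamonds) and over sites averaging under 5% (open circles). Brain is the highest tissue for all sites in Arap (0.688) and Ninj1 (0.934), and lies near 0 at the low sites of Dstn (0.00104). Each tissue is shown over its own sites.

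The low sites were compared with other tissues in the same way. In Arap1, all 31 low sites were higher in knockout brain, 31 of 33 in heart, 29 of 33 in kidney and 30 of 32 in lung, but 8 of 27 in liver. The heart median difference, 0.606 points, was above that of brain, 0.542 points, while kidney had 0.276 and lung 0.329 points. In Ninj1, 41 of 43 low sites were higher in knockout brain, 33 of 43 in spleen, 35 of 48 in lung, 33 of 45 in liver, 25 of 41 in kidney and 15 of 43 in muscle. Their median difference was 0.257 points in brain and -0.0308 to 0.0961 points elsewhere. Brain thus had the largest median of the 6 Ninj1 tissues, but by the mean of the low sites brain was the third, at 0.444 points against 0.601 in spleen and 0.579 in lung. Its median coverage, 14437.5 reads in knockout and 47404.5 in wild type, was also the most unequal of the 6. In Arap, coverage was most unequal in liver, at 19206.5 reads in knockout and 241088 in wild type, where the low-site difference was negative. Whether the low-site differences depend on coverage was not tested. In Dstn, 39 of 71 low sites were higher in brain and in spleen, and 24 to 48 of 70 in the rest. No test of these counts was made, since sites are not replicates.

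Island levels of each genotype were also set against other tissues. Knockout brain lay 0.428 ± 0.984 points above the mean of the other tissues (SD, n = 3 lines; exact permutation p = 0.333, adjusted 0.578), and wild-type brain 0.0224 ± 0.788 points above it (exact permutation p = 0.928 before and after adjustment). Neither passed. In Ninj1, brain had the highest level of 6 tissues in both genotypes, 11.2% in knockout (others 8.94% to 10.6%) and 10.3% in wild type (others 8.97% to 9.98%). The sites differ between pairs, with 62 in brain, 55 in kidney and 64 in lung. Those of brain include the thinly read far end, so the rank may rest on the choice of sites. At shared sites, the values over the 3 lines fell to 0.00789 points in knockout and -0.314 points in wild type. In Dstn, brain had the lowest level of 6 in both, 3.86% in knockout (others 3.87% to 4.49%) and 3.65% in wild type (others 3.79% to 4.01%). Without Ninj1, the knockout value was -0.135 points, with brain below the other tissues.

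At single sites, edgeR's quasi-likelihood test asked whether the genotype difference in brain departs from that in the other tissues of a line. It called 0 of 31 Arap1 sites (0%), 0 of 78 Dstn sites (0%) and 0 of 55 Ninj1 sites (0%) at an adjusted p under 0.05. At an unadjusted p under 0.05 it found 1 Arap1 site (3.23%), 4 Dstn sites (5.13%) and 2 Ninj1 sites (3.64%). The limma test on log2 odds called 0 sites in each line, with 0 Arap1 sites (0%), 5 Dstn sites (6.41%) and 1 Ninj1 site (1.82%) at an unadjusted p under 0.05. With 1 brain pair per line, a site must differ widely to be called, so these counts do not show that brain sites behave like those of other tissues.

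LacZ methylation in knockout brain differed much more between the lines than the islands did. Over the 164 CpG sites covered in every LacZ library of these lines, brain averaged 17.3% in Arap, 70.5% in Dstn and 28.6% in Ninj1, with 1 library each. A group of 17 sites had nearly the same level in all 3 brains, within 10 points, and averaged 48.3% in Arap, 47.7% in Dstn and 48.5% in Ninj1. Of these, 15 lie within 35 bases of an end of one of the 6 covered stretches. The same 17 sites averaged between 46.0% and 50.8% in the 14 other tissue libraries of these lines, which were not used to choose them. Without these sites, the other 147 averaged 13.7% in Arap, 73.1% in Dstn and 26.3% in Ninj1. The sites were left out for being alike, so that choice by itself sets the line means further apart. Why the 17 sites are alike was not tested.

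**Figure D3:**
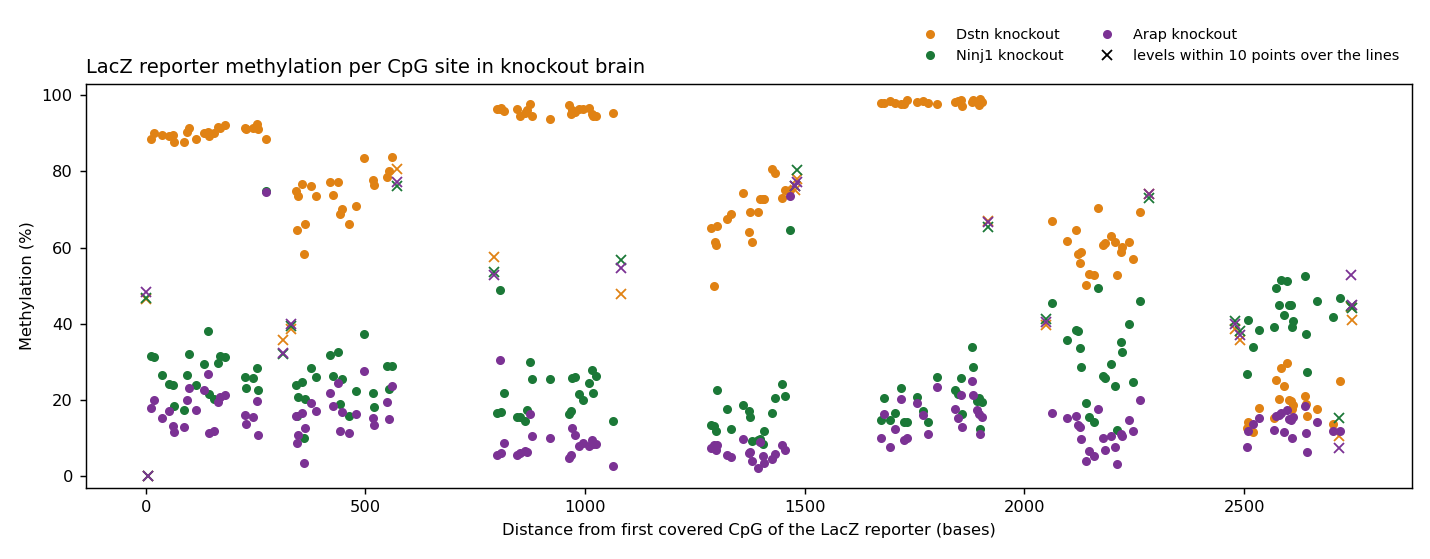
LacZ methylation (percent of reads) in knockout brain at each of 164 CpG sites, against the distance in bases from the first of them, for Dstn (orange), Ninj1 (green) and Arap (purple), 1 library each. Crosses are the 17 sites whose levels lie within 10 points in the 3 lines. Among the other 147 sites (circles), Dstn is the highest before the last stretch and Ninj1 lies above Dstn at all 20 sites within it.

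Dstn brain was the highest of the 3 along most of the reporter. The order was Dstn, Ninj1, Arap at 125 of the 147 sites, Ninj1, Dstn, Arap at 19, and another order at 3. Ninj1 exceeded Dstn at 20 of 20 sites of the last stretch, positions 2629 to 2896 of the LacZ reference, and at 0 of 127 sites before it. Arap stayed below Ninj1 at 145 of the 147.

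Levels differed from stretch to stretch along the Dstn reporter, and less along the others. The stretch values leave out the 17 sites alike over the 3 brains. Over the 6 stretches in order, Dstn brain averaged 82.3%, 95.7%, 69.0%, 98.1%, 59.9% and 19.4%. Arap brain averaged 18.0%, 9.10%, 9.73%, 15.7%, 11.2% and 13.4%. Ninj1 brain averaged 26.4%, 22.3%, 17.3%, 19.9%, 30.7% and 42.0%. The last stretch was therefore the lowest of 6 in Dstn and the highest of 6 in Ninj1. In the other Dstn tissues the last stretch was low as well, at 17.4% ± 2.10 (SD, n = 5), with brain at 19.4%. In the other Ninj1 tissues it averaged 39.9% ± 19.6 (SD, n = 5), a range of 19.6% to 62.2% that holds the brain value. The third stretch, positions 1437 to 1633, was read at a median of 60.5 reads per site in Dstn and 99.5 in Ninj1, against 29864 in Arap, so its levels in those 2 lines are the least precise.

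Single sites show the same contrast. The highest Dstn site, position 2049, had 98.9% in Dstn brain, 11.1% in Arap brain and 12.4% in Ninj1 brain. The lowest Arap site with deep coverage, position 1543, had 2.07% in Arap brain and 69.2% in Dstn brain. At position 1213, Arap had 2.79% and Dstn 95.2%. In Arap and Ninj1 the highest sites, 1633, 1627 and 722, were among the 17 alike over lines, at 76.0% to 80.3% in those brains. Position 156 had 0 of 25 methylated reads in Arap, 0 of 28 in Dstn and 0 of 30 in Ninj1, which allows levels of up to 12%, 10.7% and 10% when the limit is set at 3 reads of the total.

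Brain LacZ stood at different ranks among the tissues of each line. Over the 164 sites, Arap brain was the lowest of 5 tissues, at 17.3% against 27.3% to 66.3%. Dstn brain was the second highest of 6, at 70.5% against 33.7% to 70.6%, and 70.6% was spleen. Ninj1 brain was the fifth of 6, at 28.6% against 25.3% to 53.0%, with muscle lower. At the 147 sites, Arap brain was the lowest tissue at 142 (96.6%), Ninj1 brain at 67 (45.6%) and Dstn brain at 0. Dstn brain was the highest tissue at 59 sites (40.1%). Brain minus the mean of the other tissues was -23.1 points in Arap, 13.8 in Dstn and -12.3 in Ninj1, a mean of -7.20 ± 19.0 (SD, n = 3; exact permutation p = 0.433, adjusted 0.578). The lines moved in opposite directions, and without Arap the mean was 0.757 points. edgeR's test of a brain term called 0 of 164 LacZ sites (0%) at an adjusted p under 0.05 and 0 at an unadjusted p under 0.05, and limma called 0 at both.

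**Figure D4:**
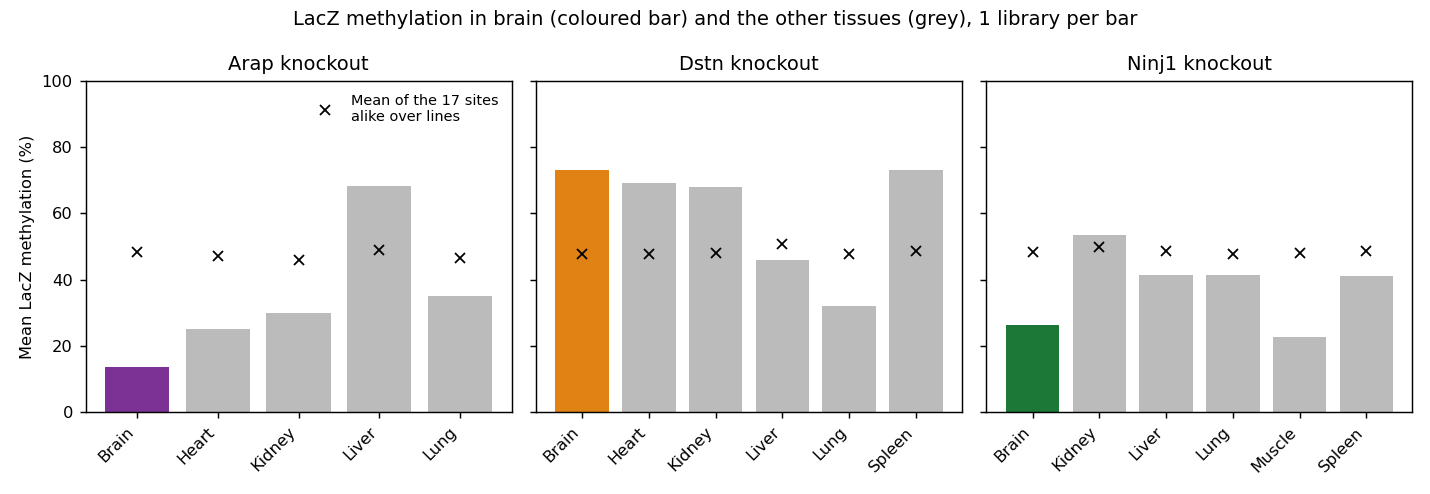
Mean LacZ methylation (percent) at 147 sites in brain (coloured bar) and the other tissues (grey bars) of each knockout line, 1 library per bar. Crosses give the mean of the 17 sites alike over the 3 brains, which stay between 46.0% and 50.8% in every tissue, while brain is the lowest bar in Arap (13.7%) and close to spleen as the highest in Dstn (73.1%).

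The island difference and the reporter level in brain are set side by side here. Ninj1 had an island difference of 0.934 points with LacZ at 28.6%, Arap had 0.688 points with LacZ at 17.3%, and Dstn had 0.209 points with LacZ at 70.5%. The order of Ninj1 and Arap depends on the sites: without sites under 100 reads Ninj1 had 0.545 points and Arap 0.688. With 3 lines no correlation was computed.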

How the data were processed

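Bisulfite-treated genomic DNA was amplified and sequenced; unmethylated cytosine then reads as thymine and methylated cytosine as cytosine. The submitters' processing notes name Bowtie2, Bismark and the mm9 build. For each CpG site the deposited files give a percent and the counts behind it, methylated and unmethylated. The counts were used as the authors deposited them, and the deposited percent equalled the methylated share. Whether duplicate reads were removed is not stated in these sources, and strands that amplify unequally would bias a level.

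Titles gave each library's line, tissue, amplicon and genotype (Ninj was merged with Ninj1). Island sites within 2000 bases of the median position of a line and sites with at least 10 reads were kept. Island pairs used sites covered in both genotypes, and LacZ used the 164 sites covered in all 17 LacZ libraries of the 3 lines. Lines were compared by exact sign-flip permutation, brain and other tissues by exact permutation within lines, with Benjamini-Hochberg adjustment over 4 tests. Site counts were fitted by edgeR 4.0.16 (quasi-likelihood, R 4.3.3), adjusted over all sites of the 3 islands or all LacZ sites, and limma 3.58.1 on log2 odds (offset of 0.5 calls) as an alternative. On simulated data the edgeR fit of the island brain term found few of the changed sites. Other steps ran in Python 3.11.15 with scipy 1.17.1, pandas 2.3.3, matplotlib 3.10.9, numpy 2.4.6 and statsmodels 0.14.6.

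Named island sites are the 3 with the largest positive and the 3 with the largest negative brain difference per line and the 3 highest in wild type. Named LacZ sites are among the 3 highest and 3 lowest per line. Alternatives were no coverage minimum, 100 reads, a window of 500 bases, pooled reads, medians, log2 odds (offset of 0.5 points), shared sites, leaving out sites of at least 5%, and leaving out each line or tissue. The members, lists and rules were chosen with earlier results of these data known. Leaving out the LacZ sites alike over lines was chosen after seeing the data.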

Additional observations from a re-analysis of the deposited data

Results flagged for a closer look

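Groups of 5 or 6 tissues were searched for a tissue far from the others of its line, in island difference, island level of each genotype and LacZ level. Of 12 groups, 2 held one, where chance gives about 1 in 20, or 0.6 of 12. Neither was brain.

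The Arap1 island in wild-type liver averaged 3.08%, against 0.532% to 0.633% in the wild-type tissues that remain, brain (0.582%) included. The knockout liver library was also the highest of its line, at 2.24% against 0.759% to 1.31%. The liver difference is 1 of the 4 whose mean the Arap1 brain difference was set against.

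The Dstn island difference in lung was 0.601 points, against 0.0775 to 0.224 points in the other tissues, brain (0.209 points) included.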

How the results depend on the processing

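In all, 185 alternatives were run over 18 results, and 134 kept their direction and their side of the threshold or, for values without a test and counts, stayed close to the reported value. None of the 5 comparisons of means had an unadjusted exact permutation p under 0.05 in any of them. The comparison over lines could not, since 0.25 is the lowest p that 3 lines allow. Its alternatives could change label by direction only. The single-site tests called 0 sites in every alternative, and these count among those kept. With 1 brain library of each kind per line, a site must differ widely to be called, so they show little stability. The island difference over lines stayed positive, at 0.215 to 0.610 points over settings and 0.449 to 0.811 without 1 line. Set against other tissues, it stayed positive, from 0.181 points without elevated sites to 0.683 without a coverage minimum. Knockout brain against other tissues turned to -0.0807 points with pooled reads, was 0.0270 at 100 reads and 0.00789 at shared sites, and ranged from -0.135 to 0.773 when a line or tissue was left out. Wild-type brain against other tissues turned negative in most settings: -0.0348 without a coverage minimum, -0.324 at 100 reads, -0.358 with pooled reads, -0.121 with medians, -0.0665 as log2 odds, -0.314 at shared sites and -0.111 without elevated sites. It ranged from -0.418 to 0.341 when a line or tissue was left out. LacZ in brain against other tissues ranged from -17.7 to 0.757 points when a line or tissue was left out.

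In each setting given for Ninj1 in the next sentences, its difference was smaller than that of Arap1. The Arap1 difference was 0.870 points without a coverage minimum. The Dstn difference was 0.330 without it, 0.455 pooled, 0.0709 between medians and 0.00104 without elevated sites. The Ninj1 difference was 0.480 without it, 0.545 at 100 reads, -0.497 pooled, 0.403 between medians, 0.488 at shared sites and 0.444 without elevated sites. The LacZ level for Arap, Dstn and Ninj1 was 17.3%, 69.5% and 27.9% without a minimum, 17.6%, 71.1% and 29.7% at 100 reads and at shared sites, 16.8%, 75.9% and 30.2% pooled, 13.1%, 75.0% and 25.7% as medians, and 13.7%, 73.1% and 26.3% without the 17 sites alike over lines. Sites past the size limit numbered 17 in Arap1 and 23 in Ninj1 at 0.5 points, and 0, 4 and 9 at 5 points in Arap1, Dstn and Ninj1. The cause of these shifts was not tested.

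Knockout and wild type were paired by line throughout, and the labels give no replicate numbers for any other pairing. Levels under 1% lie where incomplete conversion, not measured here, would show. Coverage does not limit most sites, but thinly read ends do.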
